A study of Mus musculus with 80 samples.

Results

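The genes described here are 10 chaperones and folding enzymes of the endoplasmic reticulum (ER) that are known to rise together when unfolded proteins build up there: Sdf2l1, Hspa5, Hsp90b1, Pdia4, Pdia6, Calr, Manf, Creld2, Dnajb11 and Hyou1. They are 10 of the 27179 genes in the count table, and all 10 are among the 13016 that passed the filter on low counts. The set was chosen on a value from these data: Sdf2l1 had the smallest p by reproductive state in the neocortex. The difference between states in the neocortex is therefore given below as a description of the 10 genes, with no test.

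The study asked whether gene expression in the female mouse brain still differs long after a first litter, and compared 8 virgin with 8 primiparous females (mothers of a single litter) in 5 brain regions. All animals were C57BL/6J females kept in one room by one supplier. Each primiparous female shared a pen with a male for 2 weeks from about 8 weeks of age, gave birth and reared her pups. By the sample labels her tissue was taken 3 weeks after weaning. The methods text gives a later time. Virgin females were of the same age, were caged together and were never with a male, so mating, pregnancy, rearing and the male's company cannot be told apart. The same 16 animals gave the whole hypothalamus and the left side of the cerebellum, hippocampus, neocortex and amygdala. Of 80 samples, 77 have a column in the count table. The cerebellum and hippocampus of virgin animal 4490 and the amygdala of virgin animal 4487 have none, so these regions had 7 virgin libraries.

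The ER is where secreted and membrane proteins fold. Hspa5 (BiP) binds unfolded chains, Dnajb11 and Hyou1 drive its cycle of binding and release, Pdia4 and Pdia6 form and rearrange disulfide bonds, and Hsp90b1 and Calr help selected clients and glycoproteins to mature. When unfolded proteins accumulate, the sensors Atf6, Ern1 and Eif2ak3 start the unfolded protein response, and cleaved Atf6, together with the CCAAT-binding factor NF-Y, acts on a promoter motif called the ER stress response element (ERSE).

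The motif is shown first because it is the element known from promoters of such genes. The 10 genes were grouped by their part in this response, so how often they hold it is a description, set partly by the choice of genes. Promoter windows were taken from RefSeq (build GRCm38.p6) and covered 250 bases before to 50 bases after each annotated start; they were found for 8 of the 10 genes, all but Manf and Hyou1. The letters searched on both strands were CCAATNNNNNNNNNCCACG. They stood in the windows of 5 of the 8 genes, against 39 of all 32851 windows of this length (0.119%). On the sense strand alone they stood in 3 of the 8 and in 22 windows in all. The 250 bases before the start of these 5 genes, and of Sdf2l1 for comparison, are printed 5′ to 3′ on each gene's own strand, with the matches in capitals. They lie at chr2:34771840-34772089 (plus strand) for Hspa5, chr10:86705445-86705694 (minus strand) for Hsp90b1, chr12:17266339-17266588 (plus strand) for Pdia6, chr15:88819396-88819645 (plus strand) for Creld2, chr8:84846932-84847181 (minus strand) for Calr, chr16:17132384-17132633 (minus strand) for Sdf2l1.
Hspa5: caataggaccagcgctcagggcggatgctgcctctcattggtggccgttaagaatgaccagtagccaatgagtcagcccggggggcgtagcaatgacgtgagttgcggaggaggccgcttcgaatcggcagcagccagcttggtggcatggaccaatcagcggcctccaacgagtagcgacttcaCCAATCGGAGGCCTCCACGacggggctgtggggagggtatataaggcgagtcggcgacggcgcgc
Hsp90b1: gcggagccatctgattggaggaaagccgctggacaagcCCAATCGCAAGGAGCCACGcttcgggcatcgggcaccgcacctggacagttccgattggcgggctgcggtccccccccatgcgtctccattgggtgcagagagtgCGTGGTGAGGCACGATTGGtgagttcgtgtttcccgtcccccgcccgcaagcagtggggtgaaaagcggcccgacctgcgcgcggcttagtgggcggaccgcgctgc
Pdia6: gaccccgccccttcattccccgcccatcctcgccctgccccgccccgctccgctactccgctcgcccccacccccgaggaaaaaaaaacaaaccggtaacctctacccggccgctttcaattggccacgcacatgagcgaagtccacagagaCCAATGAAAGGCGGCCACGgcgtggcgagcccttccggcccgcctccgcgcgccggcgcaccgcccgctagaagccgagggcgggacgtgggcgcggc
Creld2: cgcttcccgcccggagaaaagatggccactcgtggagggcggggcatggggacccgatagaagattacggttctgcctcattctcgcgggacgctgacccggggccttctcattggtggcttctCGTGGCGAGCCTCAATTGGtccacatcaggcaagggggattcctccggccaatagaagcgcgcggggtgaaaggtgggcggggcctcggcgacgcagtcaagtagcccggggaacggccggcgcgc
Calr: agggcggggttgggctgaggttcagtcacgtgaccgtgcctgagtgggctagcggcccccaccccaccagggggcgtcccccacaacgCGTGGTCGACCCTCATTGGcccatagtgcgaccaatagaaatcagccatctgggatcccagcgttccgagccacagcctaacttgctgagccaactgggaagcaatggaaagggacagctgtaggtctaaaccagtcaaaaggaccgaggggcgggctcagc
Sdf2l1: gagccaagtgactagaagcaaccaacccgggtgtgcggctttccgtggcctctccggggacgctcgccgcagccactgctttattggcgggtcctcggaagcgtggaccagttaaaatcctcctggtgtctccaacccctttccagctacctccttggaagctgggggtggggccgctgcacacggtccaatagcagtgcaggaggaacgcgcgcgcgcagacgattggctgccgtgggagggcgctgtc

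The match of Hspa5 ran from 65 to 47 bases before the start, the nearest of the 5 genes, and that of Pdia6 from 98 to 80 bases before it. Hsp90b1 held a pair, which began 212 and 107 bases before the start, the nearer of them on the opposite strand. The matches of Creld2 and Calr were on the opposite strand as well. The windows of Sdf2l1, Pdia4 and Dnajb11 held no match, which says only that these letters are not in these windows. A second element, ATTGGNCCACG, stood in 12 windows in all (0.0365%), among them that of Dnajb11, as ATTGGCCCACG from base 7 to base 17 after the start. Another, TGACGTGG, was in 222 windows (0.676%) and in none of the 8. Among other genes of the pathway, the ERSE letters were found for 3 of 18 further folding genes with a window (Canx, Dnajc3 and Ero1lb) and for 2 of 12 degradation genes (Derl3 and Syvn1). None of the genes with a window in the other 5 lists used below held them.

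Total counts per library ran from 7959192 to 37871854, and the lowest count of any of the 10 genes in a library was 93, for Sdf2l1. The labelled regions were told apart by their marker genes, and cortex markers were lower in amygdala libraries (up to 611 CPM, a gene's count scaled by its library's total, summed over 3 genes) than in most neocortex libraries (572 to 965 CPM in primiparous animals). The hippocampus of primiparous animal 413 stood apart with 237 CPM of cerebellum markers, where virgin hippocampus libraries had at most 7.55. Choroid plexus markers reached 3981 CPM in single hippocampus libraries and 3657 CPM in single cerebellum libraries. In bulk tissue, fewer cells of a type and less RNA per cell cannot be told apart.

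Per length, Hsp90b1, the HSP90 of the ER (Entrez 22027, chr10:86690209-86705509), had the highest level of the 10, with 124 ± 21.1 CPM per kilobase of exon (mean and SD over 77 libraries). Calr, the calcium-binding lectin calreticulin (Entrez 12317, chr8:84841850-84846934), had 92.1 ± 9.30 and Hspa5 (Entrez 14828, chr2:34771970-34777547) had 90.7 ± 24. These abundant chaperones were followed by Pdia6 (Entrez 71853, chr12:17266545-17284770) with 36.7 ± 7.46, Hyou1 (Entrez 12282, chr9:44379490-44392369) with 22.7 ± 7.37, Pdia4 (Entrez 12304, chr6:47796141-47813430) with 21.9 ± 4.56 and Dnajb11 (Entrez 67838, chr16:22857845-22879634) with 18.3 ± 2.91. The lowest were Manf, Creld2 and Sdf2l1. Manf, a secreted neurotrophic factor (Entrez 74840, chr9:106838312-106891979), had 14.7 ± 2.80. Creld2 (Entrez 76737, chr15:88819646-88826683) had 14.4 ± 3.16 and Sdf2l1, a partner of the Hspa5 complex (Entrez 64136, chr16:17130138-17132383), had 13.4 ± 4.31. Calr and Hspa5, Hyou1 and Pdia4, Pdia4 and Dnajb11, Manf and Creld2, and Creld2 and Sdf2l1 were neighbours in this order that differed by less than the larger SD. With the longest transcript as the length, Pdia4 moved from rank 6 to rank 8, behind Dnajb11 and Manf, and the ranks of the other 7 stayed as they were. Positions are from the GENCODE annotation of GRCm38. Other annotated genes overlap Hsp90b1, Dnajb11, Manf, Pdia4 and Pdia6, and the sources used here do not say whether counting used the strand, so reads of shared exons cannot be told apart.

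**Figure D1:**
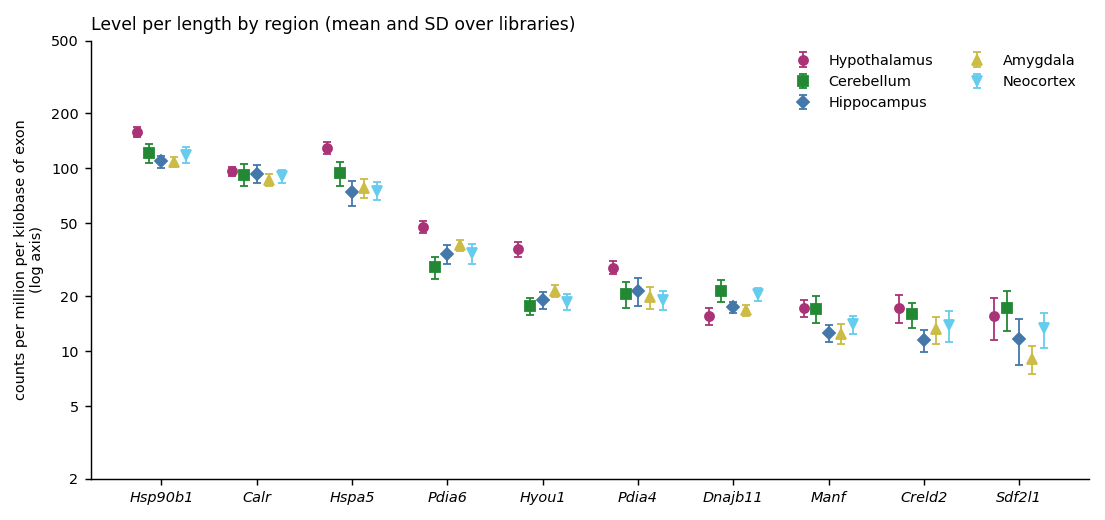
Mean level per length of each gene in each region, in CPM per kilobase of exon on a log axis, with the SD over the 15 or 16 libraries of the region. The hypothalamus has the highest mean for 8 of the 10 genes and the lowest for Dnajb11, and the means of Calr lie close together. For Manf, Creld2 and Calr the hypothalamic mean is above that of the next region by less than the larger SD.

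Most of the 10 were higher in the hypothalamus than in the other regions on average. Against the mean of the other regions, 8 were higher there and 1 lower (called here and below at a Benjamini-Hochberg adjusted p under 0.05 over 13016 genes, with edgeR's quasi-likelihood test), where 38.5% of all genes were higher and 39.1% lower. Their median log2 difference was 0.31, against -0.01 for all genes.

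Hyou1, which frees Hspa5 from bound clients, had a hypothalamic level of 261 ± 23.7 CPM (SD, n = 16), an amygdalar one of 154 ± 12, a hippocampal one of 137 ± 14.7, a neocortical one of 135 ± 13.1 and a cerebellar one of 128 ± 13.5 CPM. The hypothalamic level was 2.04-fold that of the cerebellum, and the log2 difference from the other regions, 0.82 ± 0.03 (SE; adjusted p = 1.82e-37, edgeR), was the largest of the 10. Hspa5 was next, with 550.3 ± 41.3 CPM (hypothalamus), 398 ± 58.9 (cerebellum), 331 ± 40.5 (amygdala), 319 ± 36.5 (neocortex) and 313 ± 47.9 (hippocampus), and a log2 difference of 0.61 ± 0.04 for the hypothalamus (adjusted p = 4.54e-23, edgeR). Its last 3 regions differed by less than their SD. Among the isomerases and Hsp90b1 the hypothalamic log2 differences were 0.42 (Pdia6), 0.42 (Pdia4) and 0.37 (Hsp90b1), each called. The small ER proteins were closer to their levels elsewhere: Creld2 was higher by 0.25, Manf by 0.21 and Sdf2l1 by 0.21 on the log2 scale (adjusted p from 1.75e-05 to 0.00989, edgeR).

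Dnajb11, a J-domain partner of Hspa5, had a different order. It was lowest in the hypothalamus, at 50.2 ± 5.47 CPM, and highest in the cerebellum (69.4 ± 9.47) and neocortex (66.2 ± 5.54), with a log2 difference of -0.38 ± 0.04 for the hypothalamus (adjusted p = 5.01e-16, edgeR). Calr was nearly level, from 249.5 ± 19.6 CPM in the amygdala to 279 ± 15.7 CPM in the hypothalamus, and all neighbours in its order differed by less than the larger SD. Its hypothalamic log2 difference was -0.00430 (adjusted p = 0.915, edgeR), with the sign opposite to that of the CPM means, and RLE size factors turned it. CPM are scaled by total counts and the fits by TMM factors, so small fitted differences need not have the sign of a difference between CPM means.

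Sdf2l1 was highest in the cerebellum, at 19 ± 4.72 CPM, and went down in steps smaller than the larger SD over the hypothalamus (17.2 ± 4.45), neocortex (14.8 ± 3.22) and hippocampus (12.9 ± 3.61) to the amygdala (10.1 ± 1.77). In the cerebellum, 3 of the 10 were higher than elsewhere (Sdf2l1 by 0.39, Dnajb11 by 0.19 and Manf by 0.18) and 5 lower (Pdia6 at -0.52, Hyou1 at -0.47, Pdia4 at -0.19, Hsp90b1 at -0.10 and Calr at -0.10), against 42.3% and 40.2% of all genes. In the hippocampus, Calr was higher (0.11) and 5 were lower (Creld2, Hspa5, Manf, Hyou1 and Hsp90b1, from -0.31 to -0.12), against 32.4% and 34.1%. In the amygdala, Pdia6 was higher (0.17) and 4 were lower, Sdf2l1 most (-0.56 ± 0.09) with Manf, Hspa5 and Hsp90b1, against 33.3% and 33.2%. In the neocortex, Dnajb11 was higher (0.26) and Hspa5, Hyou1 and Pdia4 were lower (-0.23, -0.23 and -0.18), against 37.7% and 36.2%. With an offset for transcript length and GC content, Hspa5 (-0.07, adjusted p = 0.204, edgeR) and Hsp90b1 (-0.03, adjusted p = 0.432) were not called in the amygdala, while Creld2 was called higher in the cerebellum (0.11, adjusted p = 0.0388) and lower in the neocortex (-0.17, adjusted p = 0.00231, edgeR). With no filter Dnajb11 and Pdia4 were called lower in the amygdala as well (adjusted p = 0.0137 and 0.0222, edgeR). With the animal as a block in the uncorrected, filtered fit, its calls were kept, and Sdf2l1 in the hippocampus (adjusted p = 0.0303, edgeR) and Pdia4 in the amygdala (0.0469) were called lower as well.

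Counts for the other lists of the pathway stand beside 38.5% of all genes higher and 39.1% lower in the hypothalamus, with no test between lists. Of 19 further ER folding genes, 17 were higher in the hypothalamus and 1 lower, with a median log2 difference of 0.44. Of 10 targets of the Eif2ak3 and Atf4 arm, 1 was higher and 8 lower there, while 8 were higher in the cerebellum and 6 in the neocortex (42.3% and 37.7% of all genes). In the hypothalamus, 12 of 16 cytosolic heat shock genes were higher and 2 lower, as were 9 and 2 of 14 degradation genes, 8 and 3 of 16 translocation genes, 5 and 7 of 13 sensors and factors, and 4 and 3 of 8 mitochondrial chaperones and proteases.

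**Figure D2:**
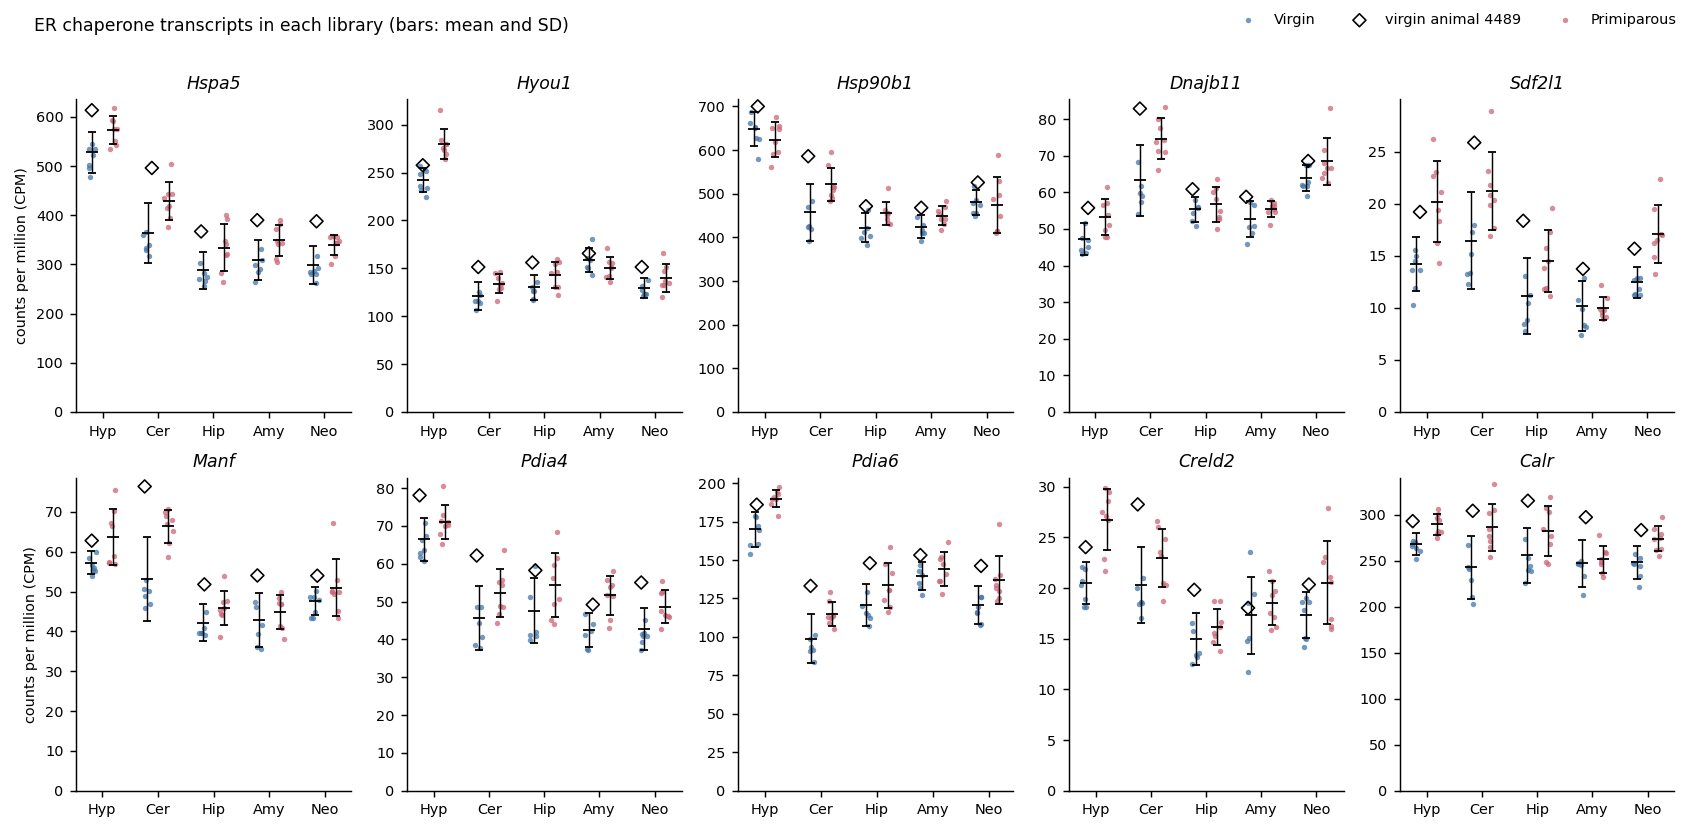
CPM of each gene in every library, by region (hypothalamus, cerebellum, hippocampus, amygdala, neocortex) and reproductive state, with the mean and SD of each group of 7 or 8 libraries. Open diamonds mark virgin animal 4489, the highest virgin library in 47 of the 50 combinations of gene and region.

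Between reproductive states in the hypothalamus, 4 of the 10 genes were higher in primiparous females (Sdf2l1, Creld2, Hyou1 and Pdia6) and none was lower, where 10.8% of all genes were higher and 11.8% lower. Sdf2l1 and Creld2 are the genes with the lowest levels per length. The fitted log2 fold change was above 0 for 9 of the 10, against 52.7% of all genes, with a median of 0.13 against 0.01. The 10 genes varied together from library to library (described below), and the set was chosen on a value from the neocortex of the same animals. Counts of fitted values above 0, here and in the regions below, are therefore not counts of independent genes. Each region was fitted on its own libraries with edgeR's quasi-likelihood test.

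Sdf2l1 ran from 10.3 over 14.1 to 19.2 CPM (lowest, median and highest) in virgin and from 14.3 over 20.3 to 26.2 CPM in primiparous hypothalamus. The groups overlapped, and all 8 primiparous values were above the virgin mean of 14.2 ± 2.63 CPM (SD, n = 8). The log2 fold change was 0.48 ± 0.12 (SE; adjusted p = 0.00834, edgeR). Creld2, an ER protein with disulfide isomerase activity, ran from 18.1 over 20.5 to 24 CPM in virgin and from 21.7 over 27.3 to 29.9 CPM in primiparous animals, also with overlap, and had a log2 fold change of 0.36 ± 0.08 (adjusted p = 0.00524, edgeR).

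Hyou1 was the only one of the 10 whose groups did not overlap, with 225 over 242 to 258 CPM in virgin and 265 over 278 to 316 CPM in primiparous animals. Of all genes, 0.592% had every primiparous library above every virgin one in this region. Its log2 fold change was small, 0.19 ± 0.04 (adjusted p = 0.00580, edgeR). Pdia6 ran from 154 over 171 to 186 CPM and from 178 over 190.4 to 197 CPM, with a log2 fold change of 0.14 ± 0.05 (adjusted p = 0.0305, edgeR). It was not called in the fit of all groups (adjusted p = 0.121, edgeR), with no filter (0.0707) or when primiparous animal 415 or 421 or virgin animal 405, 4488 or 4490 was left out (adjusted p from 0.0528 to 0.0696, edgeR).

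The other 6 did not pass the test. Hspa5 ran from 478 over 528 to 614 CPM in virgin and from 535 over 575 to 617 CPM in primiparous animals, a log2 fold change of 0.10 ± 0.05 (adjusted p = 0.155, edgeR). The values of Dnajb11, Manf, Calr and Pdia4 were 0.15, 0.13, 0.09 and 0.08, with adjusted p from 0.111 to 0.356. Hsp90b1 alone had a fitted value below 0, with 648 ± 38.2 CPM in virgin and 624 ± 39.1 CPM in primiparous animals (-0.08 ± 0.05, adjusted p = 0.238, edgeR).

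Which of the 10 were called in the hypothalamus changed with a correction for transcript length and GC content. With that offset in the edgeR fit, where 3.21% of all genes were called in either direction, 3 of the 10 were: Hspa5 (0.20, adjusted p = 0.00526), Hsp90b1 (0.12, 0.0203, with its sign turned) and Pdia6 (0.16, 0.0229). Sdf2l1 (0.30, 0.0984), Creld2 (0.22, 0.108) and Hyou1 (0.11, 0.0746) were not. With the offset and without animal 4489, which was chosen after its values were seen, 4 of the 10 (Hspa5, Hsp90b1, Pdia6 and Sdf2l1) and 1.97% of all genes were called. Limma-voom with quality weights, which called 37.6% of all genes, called 6 of the 10, with Hsp90b1 lower. The animals' numbers also split by state: 6 virgin and 1 primiparous animals have numbers of 4 digits, 2 virgin and 7 primiparous of 3, and the labels do not say what the series mean. With a term for the series, none of the 10 and 3 genes in all were called, and the fitted values of the 10 ran from 0.00 (Hsp90b1) to 0.46 (Sdf2l1), with adjusted p from 0.158 to 0.991.

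Markers of other cells differed in the hypothalamus too. Of 3 blood genes tested, Hba-a2 and Alas2 were higher in primiparous females (log2 fold changes 0.68 and 0.72), and the summed blood markers were 25.2 to 53.5 CPM in virgin and 32 to 103 CPM in primiparous libraries. Cldn5 was higher (0.41, 1 of 5 endothelial genes), with sums of 96.9 to 192 and 97.6 to 169 CPM. Of 4 neuronal genes, Snap25 and Syt1 were lower (-0.19 and -0.15) and Rbfox3 higher (0.17), with sums of 2407 to 2701 and 2247 to 2585 CPM. No marker of these lists was at 0 in all libraries, and their part in the result was not tested.

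**Figure D3:**
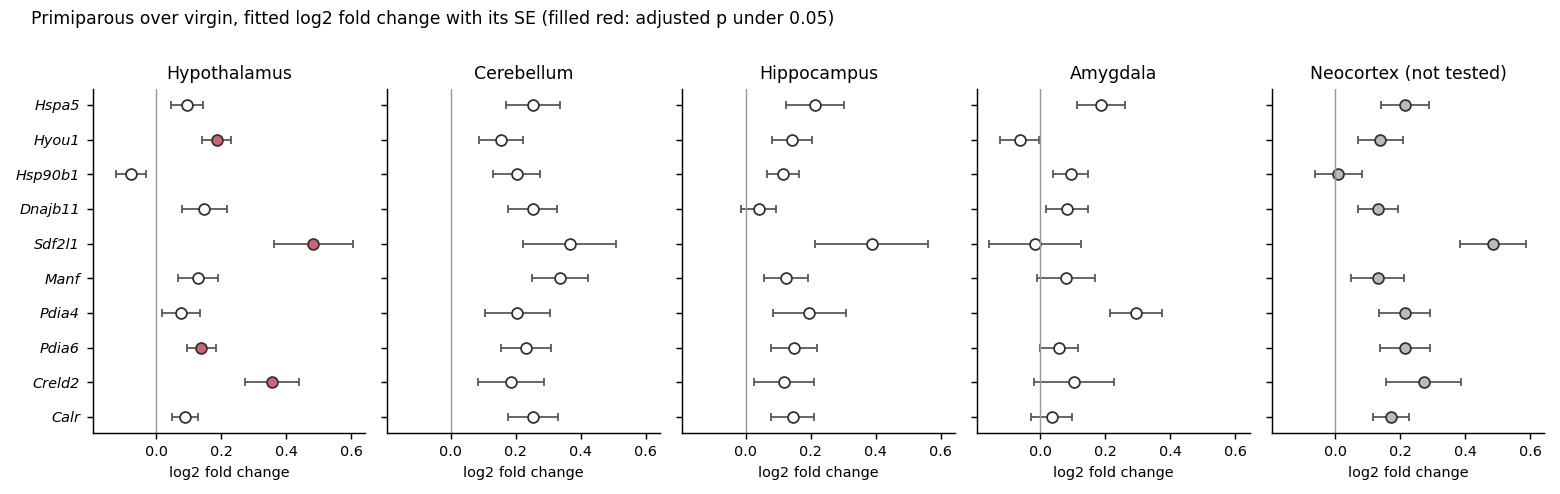
Fitted log2 fold change of primiparous over virgin females for each gene and region, with its SE. Filled points were called at an adjusted p under 0.05, open points were not, and the neocortex was not tested because the genes were chosen there. All 10 genes lie above 0 in the cerebellum and hippocampus, and the filled points are Sdf2l1, Creld2, Hyou1 and Pdia6 in the hypothalamus.

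In the cerebellum all 10 fitted log2 fold changes were above 0, from 0.15 (Hyou1) to 0.37 (Sdf2l1), against 51.6% of all genes, with a median of 0.24. None passed edgeR's test, where 0.707% of all genes did. At an unadjusted p under 0.05 there were 8 of the 10 and 2538 genes in all, DESeq2 called 3 and 505, and limma-voom 0 and 72. The lowest adjusted p was that of Manf (0.0596), with 45.8 over 50.1 to 76.4 CPM in virgin and 58.7 over 67.5 to 70.8 CPM in primiparous animals. Virgin animal 4489 was the highest virgin library for all 10 genes and the highest of all 15 libraries for 4 (Hyou1, Manf, Pdia6 and Creld2). Manf was 76.4 CPM in this animal and 45.8 to 52.9 CPM in the other 6 virgin animals.

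Without animal 4489, 7 of the 10 were higher in primiparous cerebellum (Manf, Hspa5, Dnajb11, Pdia6, Calr, Hsp90b1 and Sdf2l1), where 0.522% of all genes were. Manf then had a log2 fold change of 0.45 ± 0.06 (adjusted p = 0.00135, edgeR), Hspa5 of 0.34 ± 0.06 (0.0212) and Sdf2l1 of 0.51 ± 0.12 (0.0431). Hspa5 was at 317 to 366 CPM in the 6 other virgin animals and 376 to 504 CPM in primiparous ones, and the groups of Hspa5, Manf and Pdia6 then did not overlap, where 0.361% of all genes had every primiparous library above every virgin one. Each library was left out in turn, and this animal was singled out after its values were seen. Leaving out a high virgin animal widens the difference by construction. With the term for the number series, no gene was called, and so none of the 10 (adjusted p of the 10 from 0.794 to 0.951, edgeR) and the fitted values ran from 0.08 to 0.33.

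Some glial and fibroblast markers were higher in primiparous cerebellum as well: Mbp (0.42, 1 of 6 oligodendrocyte genes tested), C1qa and C1qb (0.42 and 0.62, 2 of 6 microglial genes), Aqp4 (0.30, 1 of 5 astrocyte genes) and Col3a1 (0.54, 1 of 5 fibroblast genes). The summed markers of virgin and primiparous libraries were 83.3 to 97 and 96.8 to 122 CPM for microglia and 4457 to 5919.9 and 5357 to 7513 CPM for oligodendrocytes. For astrocytes they were 2206 to 2677 and 2321 to 2701 CPM, and for fibroblasts 88.1 to 111 and 112 to 153 CPM. Blood and anterior pituitary markers had fitted values above 0 for 3 of 3 genes tested in each list, with medians of 0.91 and 4.75, and none was called. Their sums were 41.6 to 61.3 and 45.5 to 151 CPM for blood and 1.98 to 7.52 and 2.65 to 151 CPM for pituitary. No marker of these lists was at 0 in all libraries, and the part of these cells in the result was not tested.

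In the hippocampus all 10 fitted values were above 0, against 49.9% of all genes, with a median of 0.14, and none passed edgeR's test, as for all genes (0%). At an unadjusted p under 0.05 there were 6 of the 10 and 961 genes in all, and DESeq2 called 0 and 13. Sdf2l1 had the largest value, 0.39 ± 0.17 (adjusted p = 0.661, edgeR), with 7.79 over 10.5 to 18.4 CPM in virgin and 11.1 over 14.2 to 19.6 CPM in primiparous animals. Markers of other tissue had fitted values above 0 here as well, none of them called: 4 of 4 cerebellum markers (median 3.07), 3 of 3 pituitary genes (5.14) and 3 of 3 blood genes (0.64). Their sums in virgin and primiparous libraries were 2.49 to 7.55 and 2.26 to 237 CPM for cerebellum, 1.53 to 2.71 and 1.41 to 75.1 CPM for pituitary and 21.9 to 40.5 and 22.1 to 86.9 CPM for blood. Without primiparous animal 413, which had the most cerebellum markers, all 10 fitted values were still above 0, with a median of 0.15. The part of pituitary and blood in the result was not tested.

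In the amygdala 8 of the 10 were above 0, against 50.5% of all genes, with a median of 0.08, and none passed, again as for all genes (0%). At an unadjusted p under 0.05 there were 2 of the 10 and 1544 genes in all, and DESeq2 called 1 (Pdia4) and 106. Pdia4 had the largest value, 0.29 ± 0.08 (adjusted p = 0.199, edgeR), with 37.2 over 42.1 to 49.2 CPM in virgin and 43 over 52.8 to 58.1 CPM in primiparous animals. Sdf2l1 was near level there, with 10.2 ± 2.42 and 9.96 ± 1.11 CPM. Blood and pituitary genes were above 0 for 3 of 3 in each list here too, with medians of 0.73 and 3.56 and none called, and with sums of 15.2 to 58.6 and 23.5 to 72.3 CPM for blood and 1.36 to 15.5 and 1.24 to 184 CPM for pituitary. Microglial genes (6 of 6, median 0.14), fibroblast genes (5 of 5, 0.22) and cerebellum markers (4 of 4, 0.14) were above 0 as well. Oligodendrocyte genes (1 of 6 above 0, median -0.10) and neuronal genes (0 of 4, -0.13) went the other way. None of these was called, and the part of all these markers in the result was not tested. None of the 10 had groups without overlap in the cerebellum, hippocampus, amygdala or neocortex, where 0.2%, 0.0307%, 0.0461% and 0% of all genes had every primiparous library above every virgin one. The regions come from the same animals and are not separate evidence of a direction.

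In the neocortex, where the choice was made, Sdf2l1 ran from 11.2 over 12.2 to 15.7 CPM in virgin and from 13.3 over 16.7 to 22.4 CPM in primiparous animals, a log2 fold change of 0.48 ± 0.10. The other 9 had fitted values from 0.01 (Hsp90b1) to 0.27 (Creld2), and the median of the 10 was 0.19. Hsp90b1 had 481 ± 28.2 CPM in virgin and 473 ± 64.1 CPM in primiparous animals, and its fitted value was below 0 with the term for the number series, with quality weights and when animal 413, 427, 4488 or 4491 was left out. Animal 427 was the highest primiparous library for 7 of the 10 genes, Sdf2l1 among them. Blood and pituitary genes had fitted values above 0 for 3 of 3 in each list, with medians of 0.47 and 1.83. Choroid plexus genes were above 0 for 1 of 6 (median -0.62). Summed markers in virgin and primiparous neocortex were 21.6 to 48.1 and 25.7 to 71 CPM for blood and 1.69 to 38.8 and 1.89 to 133 CPM for pituitary. The part of these markers in the values of the 10 genes was not tested.

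Whether the difference between states itself differed between regions was tested for the hypothalamus against the cerebellum, hippocampus and amygdala, comparisons that share the hypothalamus libraries. A single gene of the 10 was called in each, where 15.5%, 17.2% and 18.2% of all genes were. For Hsp90b1 the log2 fold change was lower in the hypothalamus than in the cerebellum, with a difference of -0.29 ± 0.09 (adjusted p = 0.0224, edgeR, and 0.0301 with the animal as a block), and than in the hippocampus, with a difference of -0.20 ± 0.07 (0.0350, and 0.0488 with the block). For Hyou1 it was higher in the hypothalamus than in the amygdala, by 0.26 ± 0.07 (0.0141, and 0.0315 with the block). With the offset for length and GC content none of the 3 was called (adjusted p = 0.607, 0.921 and 0.160, edgeR). Sdf2l1 had the largest difference between hypothalamus and amygdala, 0.51 ± 0.19, which did not pass (adjusted p = 0.0544).

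Genes of the wider ER pathway were called in both directions in the hypothalamus, as were genes in general (10.8% of all genes higher and 11.8% lower). Median log2 fold changes were 0.10 (sensors and factors), 0.08 (cytosolic heat shock) and 0.07 (the Eif2ak3 and Atf4 arm). They were 0.02 (mitochondrial), -0.05 (degradation) and -0.06 (translocation), against 0.01 for all genes and 0.13 for the 10, with no test between lists. Of 19 further folding genes tested, 3 were higher in primiparous females and 5 lower, with a median log2 fold change of 0.02. The collagen chaperone Serpinh1 rose from 16.8 ± 2.65 to 26.3 ± 5.67 CPM (log2 fold change 0.61 ± 0.12, adjusted p = 0.00208, edgeR), and Cnpy3 and Erp29 rose by 0.28 and 0.22. The oxidases that recharge disulfide isomerases were lower, Ero1l at -0.37 and Ero1lb at -0.32, as was the stress-induced J-protein Dnajb9 at -0.35. Of 14 genes of ER-associated degradation, 2 were higher, the ubiquitin ligase Syvn1 (0.24) and the lectin Os9 (0.15), and 4 were lower, among them Edem1 (-0.33), Erlec1 (-0.26) and Ube2j1 (-0.21). Of 13 sensors and factors, 3 were higher, Creb3l2 (0.30), the sensor Ern1 (0.29) and the Atf6-cleaving protease Mbtps1 (0.13), and 2 were lower, the second such protease Mbtps2 (-0.38) and the NF-Y subunit Nfyb (-0.38).

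Of 10 targets of the Eif2ak3 and Atf4 arm, Ddit3 (0.34 ± 0.09, adjusted p = 0.00895, edgeR) and Chac1 (0.34 ± 0.11, 0.0341) were higher and none was lower. Of 16 translocation genes, 2 were higher (Preb at 0.20 and Ssr2 at 0.16) and 4 lower, among them Ssr3 (-0.26), Spcs3 (-0.23) and Sec62 (-0.22). Of 16 cytosolic heat shock genes, 5 were higher and 2 lower. The inducible Hspa1b, Hspb1 and Hspa1a had values of 0.62, 0.50 and 0.49, with Hspa1a and Hspa1b near-identical copies whose counts are uncertain, and the abundant Dnaja1 and Hsp90aa1 had -0.25 and -0.18. Of 8 mitochondrial chaperones and proteases, Clpp (0.28) and Lonp1 (0.21) were higher and none was lower. Of the 30 genes that the naming rule gives in these 7 lists, 3 were called with the offset for length and GC content (Erp29, Serpinh1 and Ddit3) and none with the term for the number series. No gene of the 7 lists was called by edgeR in the cerebellum, hippocampus or amygdala.

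Within groups, the 10 genes varied together from library to library. The measure was Pearson's r over 77 libraries between the deviations of 2 genes from their group means, on the log2(CPM + 4) scale. Libraries of an animal share their source, so these values are a description. Over the 45 pairs the median r was 0.59, from 0.18 (Hyou1 with Hsp90b1) to 0.81 (Hspa5 with Pdia6), while Hspa5 had a median r of 0.00 with all 13016 genes. The genes most like Hspa5 were Pdia6, Pdia4 (0.81), Calr (0.78), the cytosolic chaperone Hspa8 (0.68) and Manf (0.67), and 8 of the other 9 were among its nearest 10, with Creld2 at rank 26. Those most like Sdf2l1 were Creld2 (0.68), Pdia6 (0.66), Dnajb11 (0.65), Srprb, a subunit of the signal recognition particle receptor (0.62), and Hspa5 (0.61). Pdia4 had rank 158 and Hsp90b1 rank 1669 in its list.

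Without the 5 libraries of animal 4489, r was lower for all 45 pairs, with a median of 0.38, and 4 of the other 9 were among the 10 genes nearest to Hspa5. The 6 pairs among Hspa5, Pdia4, Pdia6 and Calr ran from 0.53 to 0.71, and Sdf2l1 had 0.58 with Creld2 and 0.51 with Dnajb11. Hsp90b1 had -0.12 with Hyou1 and 0.03 with Sdf2l1.

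**Figure D4:**
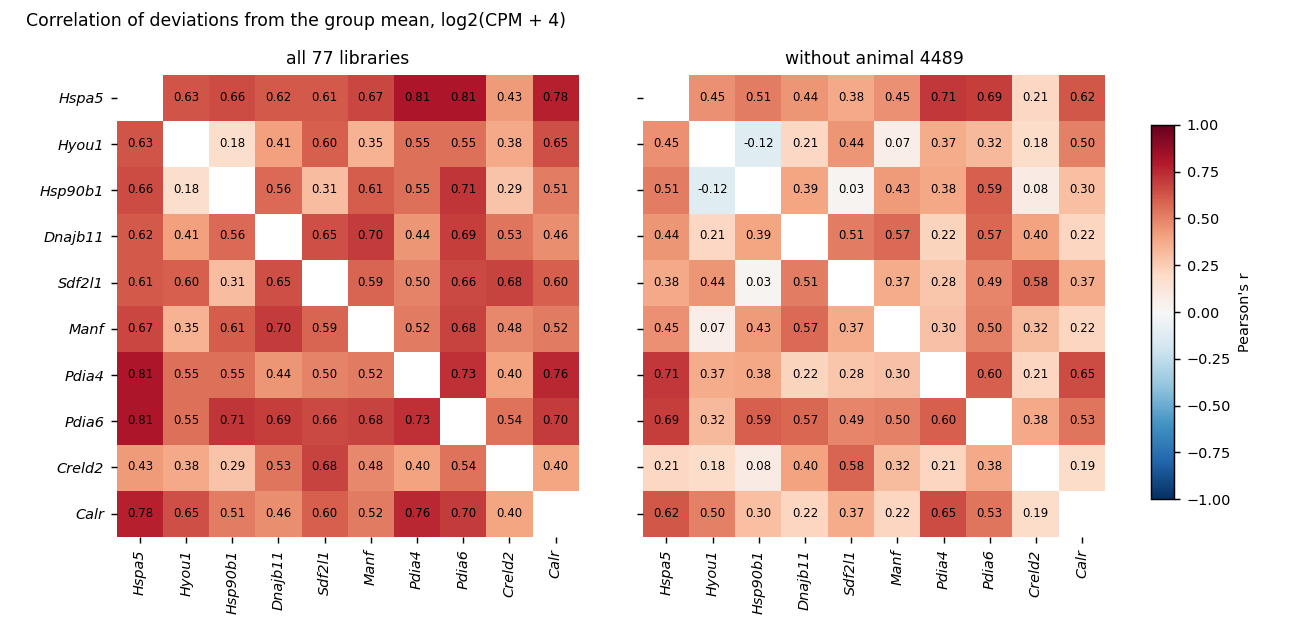
Pearson's r between the 10 genes over libraries, from deviations of log2(CPM + 4) from the group mean, with all 77 libraries and without the 5 libraries of virgin animal 4489. All 45 values are lower without the animal, and the pairs among Hspa5, Pdia4, Pdia6 and Calr stay at 0.53 or more.

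Animal 4489 held more of these transcripts in every region. Set against the mean of the other libraries of its group, all 10 genes were above 0 in all 5 regions, and no other animal had more than 3 such genes. The median over the 10 was 0.19 log2 units (hypothalamus), 0.20 (amygdala), 0.24 (neocortex), 0.34 (hippocampus) and 0.50 (cerebellum). Hspa5 was 614 CPM in its hypothalamus, where the other 7 virgin animals had 478 to 545, and 388 CPM in its neocortex, where they had 262 to 317. In the hippocampus it was 367 CPM against 256 to 303, and in the amygdala 390.1 CPM against 264 to 331. Ranked by the smallest difference over the 5 regions among all 13016 genes, Sdf2l1 (0.30 to 0.69), Hspa5 (0.25 to 0.54) and Pdia4 (0.23 to 0.50) had ranks 1, 2 and 3. Pdia6, Calr, Manf, Hsp90b1 and Dnajb11 had ranks 10, 11, 12, 16 and 24, and Creld2 and Hyou1 56 and 66. For each of the other 15 animals, none of the 10 was within the first 30 of the same ranking.

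The other genes at the top of that ranking were Chdh, P4ha1 (a prolyl hydroxylase of the ER), Ak4, the cytosolic chaperones Hsph1 and Hspa1b, and Zbtb40. By over 0.1 log2 units in all 5 regions, 33 genes were higher and 27 lower. At the top of the lower genes were Gm47283 (-1.51 to -0.64), Sgk1 (-0.61 to -0.29) and Nfkbia (-0.46 to -0.23), the latter both known to respond to glucocorticoids. Arl4d (-0.67 to -0.23), 9330151L19Rik (-0.26 to -0.21) and Armcx5 (-0.32 to -0.15) came next. The cold-inducible RNA-binding protein Cirbp (-0.45 to -0.15) had rank 7. These genes were named after their values were seen. The cytosolic heat shock list had medians from 0.06 to 0.25 over the 5 regions of this animal, with 11 to 16 of its 16 genes above 0, and the further ER folding genes had medians from -0.04 to 0.09. Choroid plexus markers had a median of 0.39 in its cerebellum and -0.51 in its hippocampus, and fibroblast markers one of 0.99 in its hypothalamus and -0.21 in its neocortex.

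**Figure D5:**
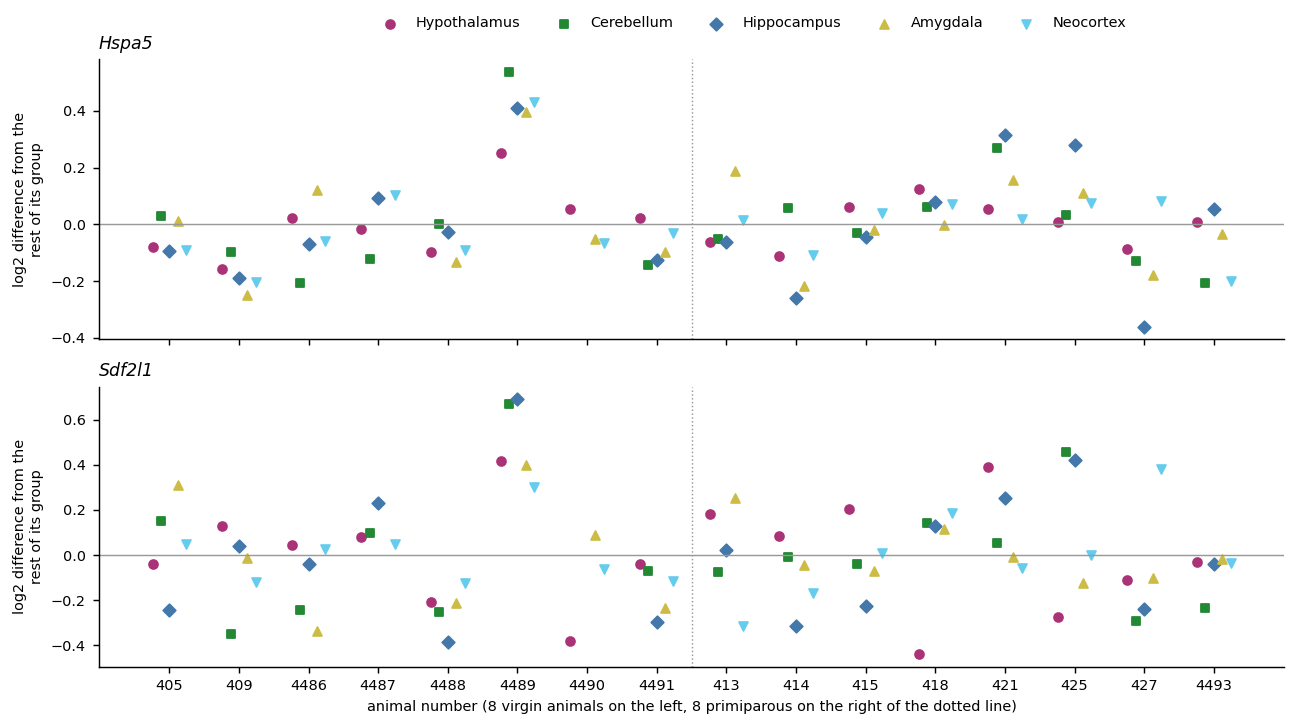
Difference of Hspa5 and Sdf2l1 in each library from the mean of the other libraries of its group, in log2(CPM + 4) units, by animal (8 virgin, then 8 primiparous) and region (symbols). All 5 symbols of animal 4489 lie at 0.25 or higher in both panels.

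Hspa5 deviated in the same direction in different regions of an animal, in relations that were weaker in every pair of regions without 2 animals. Over the 10 pairs of regions (14 to 16 animals each) Pearson's r ran from 0.56 to 0.79, with two-sided permutation p from 0.000620 to 0.0280 and, adjusted over the 10 pairs, from 0.0062 to 0.028. Spearman's rho ran from 0.25 to 0.69, with adjusted permutation p from 0.0572 to 0.377. Without the 2 animals farthest from the median, 4489 and either 409 or 421, r ran from -0.02 to 0.63. It stayed above 0.5 for the hippocampus with the amygdala and with the hypothalamus. For the other 8 pairs it ran from -0.02 (cerebellum with amygdala) to 0.39 (hypothalamus with amygdala).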

How the data were processed

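The deposited table holds raw counts per gene, which the authors made from polyA RNA libraries (single-end reads, HISAT2 on mm10, featureCounts with its built-in annotation, uniquely mapped reads). The strand setting is not given in the sources used here. A second deposited table holds log2 values on the scale of log2(count / size factor + 4), used here only for alternatives. All sample columns were used (0 left out). Genes that reached 5 CPM in 8 or more libraries were tested with edgeR 4.0.16 (TMM scaling, quasi-likelihood F-test) in R 4.3.3, per region for reproductive state and over all 10 groups for regions and for differences between regions, with Benjamini-Hochberg adjustment over 13016 genes and a threshold of 0.05. No member was tested by state in the neocortex. The SE of an edgeR log2 value is its absolute value divided by the square root of its F statistic. Alternatives used limma 3.58.1, DESeq2 1.42.0, size factors by RLE, no filter, quality weights, a fit of all groups, a term for the animals' number series, an offset for length and GC content (spline, 4 degrees of freedom, 97% of genes with values), each library left out, and the animal as a block. The labels give the same animal numbers in every region, so numbers pair the samples. The median correlation of deviations over pairs of regions was -0.01 to 0.10 within an animal and -0.01 to 0.01 between animals. The replicates are separate animals. Values in the text are CPM of total counts, which ranged from 7959192 to 37871854 per library, and their SDs hold counting and animal-to-animal error together. Named pathway genes are, per list and direction, the up to 3 called in the hypothalamus with the largest or smallest log2 fold change, and the 5 genes most like Hspa5 and Sdf2l1. Protein sequences were not used here. The members, the 7 pathway lists, the 14 marker lists and the rules were chosen with earlier results of these data known. Of 179 listed genes, 178 are in the count table. The code was tested on simulated data.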

Additional observations from a re-analysis of the deposited data

Results flagged for a closer look

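Of 100 groups of a gene, region and state, 16 had a sample whose gap to the next was over the limit of Dixon's test, which chance alone passes in about 1 of 20 groups, and the groups are not independent because they share animals. Virgin animal 4489 was the highest sample in 11 of them. These were Hspa5 in the cerebellum (496 CPM), hippocampus (367 CPM) and neocortex (388 CPM), Sdf2l1 in the cerebellum (25.9 CPM) and neocortex (15.7 CPM), and Pdia6 in the cerebellum (133 CPM) and neocortex (146 CPM). The others were Hyou1 (151 CPM), Manf (76.4 CPM) and Creld2 (28.3 CPM) in the cerebellum and Pdia4 in the neocortex (55 CPM).

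Primiparous animal 421 stood apart for Hyou1 in the hypothalamus (316 CPM) and Hsp90b1 in the hippocampus (514 CPM). Primiparous animal 427 stood apart in the neocortex for Dnajb11 (82.9 CPM), Manf (67.3 CPM) and Pdia6 (173 CPM).

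A test of the difference itself called the effect of parity as unequal between regions for Hsp90b1, between hypothalamus and cerebellum (-0.29 on the log2 scale) and between hypothalamus and hippocampus (-0.20), and for Hyou1, between hypothalamus and amygdala (0.26). Of all genes, 15.5%, 17.2% and 18.2% were called in these 3 comparisons. With the offset for length and GC content none of the 3 differences was called (adjusted p = 0.607, 0.921 and 0.160, edgeR), and the second turned sign (0.018).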

How the results depend on the processing

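The number of the 10 genes called by state in the hypothalamus was 0 with the term for the number series, 3 to 4 when each library was left out (Pdia6 being the gene lost; 15.5% to 31.6% of all genes), 3 in the fit of all groups (16.8%) and with no filter (11.3%), again without Pdia6, 4 with the offset and without animal 4489 (1.97%) and 6 with quality weights (37.6% of all genes), where Calr (0.097, adjusted p = 0.0487, limma) was called higher and Hsp90b1 (-0.10, adjusted p = 0.0401, limma) lower. In the cerebellum it was 3 with DESeq2 (3.88% of all genes), 3 in the fit of all groups (0.73%), 3 with quality weights (4.75%), 2 with the offset for length and GC content (3.34%), 8 with that offset and animal 4489 left out (2.45%, an alternative chosen after seeing the data), and 0 to 7 when each library was left out. It was 3 there without primiparous animal 4493 (6.94%) and 7 without virgin animal 4489 (0.63%). In the amygdala DESeq2 called 1 (0.814%), and with the offset 3 of the 10 were called against the other regions (68.5%), without Hspa5 and Hsp90b1. By region the offset gave 9 in the cerebellum (84.5%) and 5 in the neocortex (74.1%), each with Creld2 added, and no filter gave 7 in the amygdala (44.9%). Of the differences between regions, 0 were called in each of the 3 comparisons with the offset (6.17%, 1.58% and 1.76% of all genes). With the replicate block and the offset together the count was 0 in each as well (5.22%, 0.353% and 0.83%). Without animal 4489, again chosen after seeing the data, 2 were called between hypothalamus and cerebellum (10.1%). With the replicate block alone, the members called by region numbered 7 in the hippocampus (66.6% of all genes) and 6 in the amygdala (66.3%), and no other count of members changed.

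Some fitted values that were not called in the uncorrected edgeR fits changed sign. For Hsp90b1 in the hypothalamus it was 0.0023 with the series term, 0.12 with the offset and 0.13 with the offset and without animal 4489. For Sdf2l1 in the amygdala it was 0.055 with the offset, 0.13 with the offset and without animal 4489, 0.012 with limma-voom and -0.071 to 0.069 when each library was left out, above 0 for 4 of them (0.069 without virgin animal 4489). For Creld2 in the amygdala it was -0.082 with the series term. RLE size factors changed no call and turned the sign of 3 values near 0 that were not called: Calr by region in the hypothalamus, Dnajb11 by region in the hippocampus and Manf in the difference between hypothalamus and hippocampus. The causes were not tested. The lowest count of a member in a library was 93, so counting error is largest for Sdf2l1.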

Other observations

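Of the 15 animals other than 4489, 13 had regional medians over the 10 genes of both signs, in log2 units from the rest of their group, and 2 virgin animals (409 and 4488) were below 0 in every region. Primiparous animal 427 had 0.34 in the neocortex, but -0.21 (hippocampus), -0.14 (cerebellum) and -0.06 (hypothalamus) elsewhere. Primiparous animal 421 had 0.16 (cerebellum), 0.17 (hippocampus), 0.10 (hypothalamus) and -0.06 (neocortex). Primiparous animal 425 had 0.23 in the hippocampus and -0.04 in the neocortex. The medians of virgin animal 409 ran from -0.14 to -0.04 and those of virgin animal 4488 from -0.11 to -0.0079.

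Without animal 4489 the groups of Calr no longer overlapped in the hypothalamus either (0.661% of all genes then had every primiparous library above every virgin one), with a log2 fold change of 0.11 that was not called (adjusted p = 0.0710, edgeR). Among the differences between regions, Manf was then called for the hypothalamus against the cerebellum, at -0.30 (adjusted p = 0.026, edgeR), beside Hsp90b1.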
